A study of Mus musculus with 2 samples.

Results

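Isl1 binding was described at 9 core genes of the Hedgehog pathway, namely the ligands Shh and Ihh, the receptor Ptch1, the coreceptor Boc, the ligand-binding inhibitor Hhip, the transducer Smo and the transcription factors Gli1, Gli2 and Gli3. They were looked up by symbol among the 12972 gene names to which Isl1 peaks had been assigned, and 7 of the 9 were found, with 48 of the 48295 peaks.

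Hedgehog signalling lets some cells of an embryo instruct their neighbours. A secreted Hedgehog protein binds the receptor Ptch1, which otherwise keeps the membrane protein Smo silent. Smo then acts in the primary cilium on the Gli transcription factors, which switch the target genes. In the early embryo Shh is made by the notochord, the floor plate and the ventral foregut endoderm, and the endodermal source acts on the adjoining second heart field, where Isl1, a LIM homeodomain transcription factor, marks the cardiac progenitors. Isl1 is also needed for Shh signalling from the foregut endoderm.

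Isl1 binding was mapped by chromatin immunoprecipitation and sequencing (ChIP-Seq) in cardiogenic mesoderm and heart regions of C57BL/6 mouse embryos at E8.25-E9. Nuclei of about 60 to 80 embryos were pooled, so the list stands for a mixture of stages and of all cell types in the dissected region. The antibody was the anti-Isl1 clone 39.4D5, and the input sample of the same material was not analysed here. The list gave 48295 peaks by position in the mouse genome build mm9, with the signed distance to the closest transcription start site (TSS) and its gene. It held no peak height, read number or p-value, so the depth is unknown, peaks could not be ranked and no replicate error could be given. All values below are therefore descriptions of 1 list, without a test.

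Peaks were assigned to 7 of the 9 Hedgehog genes, whereas 49.8% of the 21883 protein-coding genes of the mouse RefSeq annotation had at least 1 peak. The 48 peaks were spread unevenly. Gli3 had 12, Hhip 10, Gli2 9, Boc 8, Shh 5, and Ihh and Ptch1 had 2 each, while Smo and Gli1 had none. The 4 genes with at least 8 peaks held 39 of the 48, and 5.35% of protein-coding genes reached 8. At least 2 peaks were assigned to 7 of the 9 genes, against 29.3% of protein-coding genes, and the median of the protein-coding genes with a peak was 2.00. A peak lay within 10 kb of the TSS of 5 of the 9 genes, namely Ihh, Boc, Hhip, Gli2 and Gli3, against 24.7% of protein-coding genes. These shares depend on how far apart genes lie, which is set out below.

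**Figure D1:**
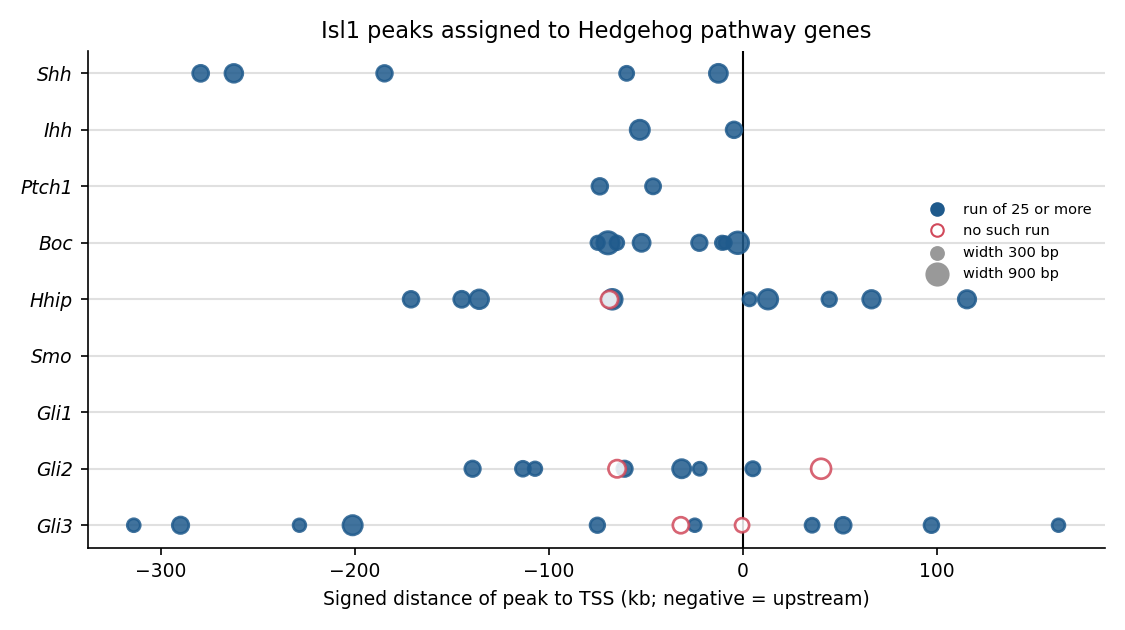
Position of each of the 48 Isl1 peaks relative to the TSS of the gene it was assigned to, in kb, with negative values upstream. Each row is a gene, the size of a point follows the peak width, and open points are the 5 peaks without a purine or pyrimidine run of 25 bp in their centre. Shh, Ihh, Ptch1 and Boc had points on the upstream side only, and the rows of Smo and Gli1 are empty.

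The sequence under the peaks comes first, since most of the peaks shared 1 feature. In the central 200 bp, an unbroken run of at least 25 purines (A and G) or 25 pyrimidines (C and T) was present in 43 of the 48 peaks (89.6%, exact 95% binomial interval 77.3 to 96.5, counting error only). It was present in 94.1% of all peaks of the list. In windows of the same length 1 kb to either side, 4.17% of the windows of these genes held such a run, and 3.95% over the list. The following windows are the closest run-bearing peaks of Ptch1, Hhip, Gli2 and Gli3, read from the plus strand of mm9, with the longest run in capitals. They are shown because they differ in the kind of run, from a plain repeat of 2 bases to repeats of longer units.
Ptch1, 46.3 kb upstream, chr13:63720939-63721138: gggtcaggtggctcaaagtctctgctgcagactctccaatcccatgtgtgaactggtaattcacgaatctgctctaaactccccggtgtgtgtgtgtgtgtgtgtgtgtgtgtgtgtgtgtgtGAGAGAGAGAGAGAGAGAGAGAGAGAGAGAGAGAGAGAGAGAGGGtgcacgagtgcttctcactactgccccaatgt
Hhip, 3.46 kb downstream, chr8:82578348-82578547: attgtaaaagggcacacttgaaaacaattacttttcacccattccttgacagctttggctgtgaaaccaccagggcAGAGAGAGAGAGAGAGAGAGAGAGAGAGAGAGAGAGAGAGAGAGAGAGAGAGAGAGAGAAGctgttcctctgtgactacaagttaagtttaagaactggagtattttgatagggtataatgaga
Gli2, 5.16 kb downstream, chr1:120944936-120945135: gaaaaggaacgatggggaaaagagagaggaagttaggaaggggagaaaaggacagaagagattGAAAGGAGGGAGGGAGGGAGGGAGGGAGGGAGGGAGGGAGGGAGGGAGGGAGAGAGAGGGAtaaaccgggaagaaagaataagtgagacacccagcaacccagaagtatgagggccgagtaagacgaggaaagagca
Gli3, 24.8 kb upstream, chr13:15530696-15530895: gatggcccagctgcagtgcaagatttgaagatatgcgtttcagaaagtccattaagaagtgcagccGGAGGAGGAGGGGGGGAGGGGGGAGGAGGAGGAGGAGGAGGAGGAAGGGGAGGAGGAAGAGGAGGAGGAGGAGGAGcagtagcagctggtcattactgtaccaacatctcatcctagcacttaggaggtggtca

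The run covered 76 bp of the window at Gli3, 61 bp each at Hhip and Gli2, and 45 bp at Ptch1. In the closest peaks of the other genes, the run filled the whole 200 bp window at Ihh and covered 195 bp of it at Boc and 153 bp at Shh. In the Hhip window it was a repeat of AG, in the Ptch1 window a GA repeat that followed directly on a GT repeat, and at Gli2 a repeat of GGGA. The runs in the central windows of Shh, Ihh and Boc were pyrimidine runs on the plus strand, and all 3 genes are transcribed from the minus strand, so that the same runs read as purines in the direction of the gene. Ptch1, Hhip and Gli2 are transcribed from the minus strand too, and there the printed purine runs read as pyrimidines. Gli3 lies on the plus strand, and its printed run reads as purines.

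Shh is the Hedgehog protein of the foregut endoderm, notochord and limb bud. Its 5 peaks all lay upstream, at 12.6, 59.9, 185, 262 and 279.5 kb from the TSS, and were 370 to 604 bp wide. No peak lay over the Shh gene itself. Each of the 5 lay in an intron of 9530036O11Rik, a long noncoding RNA gene on the opposite strand that begins within Shh and extends upstream to 467 kb from the Shh TSS. That gene held 8 peaks in all, and the other 3 were assigned to Rnf32, a protein-coding gene 729 kb from the Shh TSS. The longest run in the centre of the Shh peaks was 56 bp in the peak at 59.9 kb and 114 to 200 bp in the other 4.

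The regulatory DNA of Shh is known to extend far beyond the gene, and its limb enhancer lies in an intron of Lmbr1. Beyond the farthest Shh peak the list gave 8 peaks assigned to Rnf32, at 364 to 752 kb from the Shh TSS. Lmbr1 held 1 peak, chr5:29665758-29666158, at 872 kb from the Shh TSS, and it was assigned to Lmbr1 itself. On the other side of Shh, the gene Rbm33 held no peak, and the nearest peak was 259.5 kb away at Cnpy1. Between Rbm33 and Lmbr1 all peaks thus lay upstream of Shh, and the nearest 5 carried its name in the list. Where the limb enhancer itself lies relative to the Lmbr1 peak was not tested.

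Ihh, the Hedgehog protein best known from growing cartilage and gut, had 2 peaks. The closer lay 4.54 kb upstream in intergenic DNA and was 460 bp wide, with a pyrimidine run of 304 bp, the longest of the 48 peaks. The other lay 53.1 kb upstream in an intron of Nhej1, a DNA repair gene, and was 688 bp wide with a run of 291 bp. By the protein-coding TSSs of the GENCODE vM1 annotation that peak was closer to Nhej1 than to Ihh.

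Ptch1, the receptor and itself a target of the pathway, had 2 peaks in intergenic DNA, 46.3 and 73.7 kb upstream of the TSS. They were 424 and 459 bp wide. None lay over the 64.2 kb of the gene. The longest central runs measured 45 and 47 bp, and among the 43 peaks with a run only the Gli2 peak 31.5 kb upstream, with 26 bp, had a shorter one.

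Boc, a coreceptor that binds Shh beside Ptch1, had 8 peaks, all of them upstream and all intergenic. They lay 2.59, 9.12, 10.7, 22.4, 52.2, 64.9, 69.5 and 74.8 kb from the TSS, which made a span of 72.9 kb with a median gap of 5.95 kb. Widths ran from 286 bp, narrower than all but 0.853% of the list, to 920 bp at 69.5 kb upstream. Every Boc peak had a run in its centre, of 48 to 195 bp. The 3 peaks lying over the Boc gene were assigned to the microRNA gene Mir3081 and are not among the 8.

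Hhip encodes a membrane protein that binds Hedgehog ligands and so limits the signal, and it is a target of the pathway. Its 10 peaks were 5 upstream and 5 downstream of the TSS. The closest lay 3.46 kb downstream in an intron, and the farthest lay 171 kb upstream. A peak 13.0 kb downstream, chr8:82568579-82569286, overlapped an internal exon of Hhip (82568950 to 82569106). The other downstream peaks lay at 44.6 and 66.3 kb, in introns, and at 116 kb, past the end of the gene. Upstream, the peaks stood as a pair at 67.3 and 69.0 kb, 1.01 kb apart edge to edge, and as 3 peaks from 136 to 171 kb. On the coding strand of Hhip the longest central run was of pyrimidines in each of the 5 downstream peaks. It was of pyrimidines also in the 3 upstream peaks from 136 to 171 kb, and of purines in the pair at 67.3 and 69.0 kb.

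Smo, the transducer on which every Hedgehog ligand converges, had no peak. The nearest peak to its 5' end was 36.8 kb away and was assigned to Tspan33, the upstream neighbour. Gli1, the transcription factor whose level is the common readout of the pathway, had none either, and the nearest peak, 39.4 kb from its 5' end, was assigned to R3hdm2. That peak had no run, its longest being 8 bp. Within 500 kb of the TSS the list held 20 peaks around Smo and 22 around Gli1, all assigned to other genes, compared with 15 to 33 around the other 7 genes.

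Gli2, the main activator of the pathway, had 9 peaks, 7 upstream and 2 in introns. The closest lay 5.16 kb downstream of the TSS and the farthest 139 kb upstream. Widths ran from 316 to 732 bp. A further peak over the gene was assigned to the microRNA gene Mir6346.

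Gli3, which acts mainly as a repressor when the signal is absent, had 12 peaks, the most of the 9 genes. Of these, 8 lay upstream, out to 314 kb, and 4 in introns, out to 163 kb downstream, over a span of 477 kb. The peak closest to the TSS, chr13:15554979-15555346, was at 0.394 kb and was the only one of the 48 within 1 kb of a TSS. It overlapped the first exon of Gli3 in GENCODE vM1, which starts at 15555068, by 174 bp. The middle of the peak lay 0.0940 kb from that start and inside the exon, whereas the list placed the peak upstream of its TSS. The share of G and C in this peak was 76.6%, the highest of the 48 and well above the median of 49.2%. Over the Gli3 gene lay 2 further peaks that were assigned to the noncoding gene 4933412O06Rik.

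The number of peaks that a closest-TSS assignment can give a gene depends on the room around it. For each of the 22212 protein-coding genes of GENCODE vM1, the stretch of genome closer to its TSSs than to those of any other gene was measured. The median stretch was 45.7 kb. It was 688 kb for Gli3, 433 kb for Gli2 and 425 kb for Hhip, longer than in 97.1%, 94.5% and 94.3% of genes. It was 14.2 kb for Gli1, 16.7 kb for Ihh and 30.2 kb for Smo, while Shh had 63.9 kb, Boc 127 kb and Ptch1 188 kb. The stretch of Shh was bounded by Gm10290, a predicted gene 71.4 kb upstream, and 4 of the 5 Shh peaks were closer to that TSS.

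Among genes with stretches of 400 kb or more, 99.4% had a peak in it, with a median of 13.0 and quartiles of 9 and 19. Hhip and Gli2 with 11 each and Gli3 with 14, counted here whatever gene the list named, lay within those quartiles. Among genes with less than 50 kb, 29.9% had a peak, and Ihh was among them while Smo and Gli1 were not. Boc lay at the upper end of its group. Its stretch held 10 peaks, 8 assigned to Boc and 2 to Mir3081, where the median of the 2943 genes with 100 to 200 kb was 2.00 and the upper quartile 4.00. Boc was 1 of 9 such genes (0.306%) with 10 peaks or more. The bound is the count of Boc itself, and no such rank was computed for the other Hedgehog genes, so the share is a description only. Ptch1, in the same group, held 2.

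**Figure D2:**
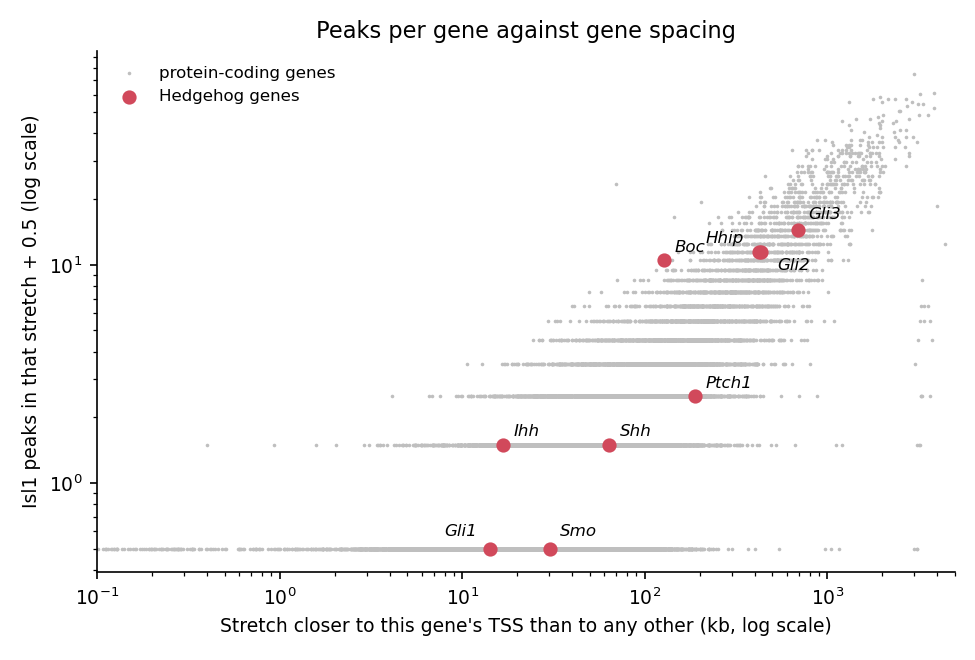
Isl1 peaks in the stretch closest to each protein-coding gene (vertical axis, count plus 0.5, log scale) against the length of that stretch in kb (log scale). Grey points are those of the 22212 genes whose stretch falls within the axis, which leaves out the shortest stretches, and red points are the 9 Hedgehog genes. Boc lies on the upper edge of the cloud with 10 peaks in 127 kb, Hhip and Gli2 coincide at 11 peaks, and Smo and Gli1 lie on the line of genes without a peak.

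Per length, the stretches of the 9 genes together held 50 peaks in 1986 kb, or 25.2 per Mb, and the genome 18.9 per Mb of sequenced bases. The density was 78.8 per Mb for Boc and 20.3 to 25.9 per Mb for Hhip, Gli2 and Gli3. Ptch1 had 10.6 per Mb from 2 peaks, and Shh 15.6 per Mb from 1 peak. The value of 60.0 per Mb for Ihh rested on 1 peak.

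Upstream peaks outnumbered downstream ones at these genes, 37 to 11, or 77.1% (exact 95% interval 62.7 to 88.0). Over the whole list the upstream share was 47.5%. Peaks of 1 gene share a locus, so the interval, which takes them as independent, is too narrow. By the names in the list, Shh, Ihh, Ptch1 and Boc had upstream peaks only, which made 17 of the 37. Gli2 had 7 of 9, Gli3 8 of 12 and Hhip 5 of 10. The share also depends on this naming. Peaks over Boc, Gli2 and Gli3 that carried the names Mir3081, Mir6346 and 4933412O06Rik lie downstream and are not counted. Among the 50 peaks in the stretches measured above, whatever gene the list named, 68.0% were upstream. No such value over the whole list is given here. Of the 48, 31 were intergenic, 15 in introns and 2 over exons, a split that was not computed for the whole list. The intronic ones include all Shh peaks and the farther Ihh peak, which lay in introns of other genes. The median distance of the 48 was 64.9 kb against 58.8 kb for all peaks, and the median width 458 bp against 466 bp, so both were close to those of the list.

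The longest central run had a median of 81.0 bp in these peaks and 92.0 bp in all peaks. It was at least 40 bp long in 42 of the 48 (87.5%), against 91.2% of all peaks. A repeat of at least 4 CT or GA units was present in 58.3% of the central windows, against 56.1% in the list, and at least 4 units of CA or GT in 22.9% against 18.6%. The run was of purines on the coding strand of the gene in 17 of the 43 peaks. The list gives positions only, and no input signal was used here, so how much of the read signal at such repeats was due to the antibody was not tested.

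**Figure D3:**
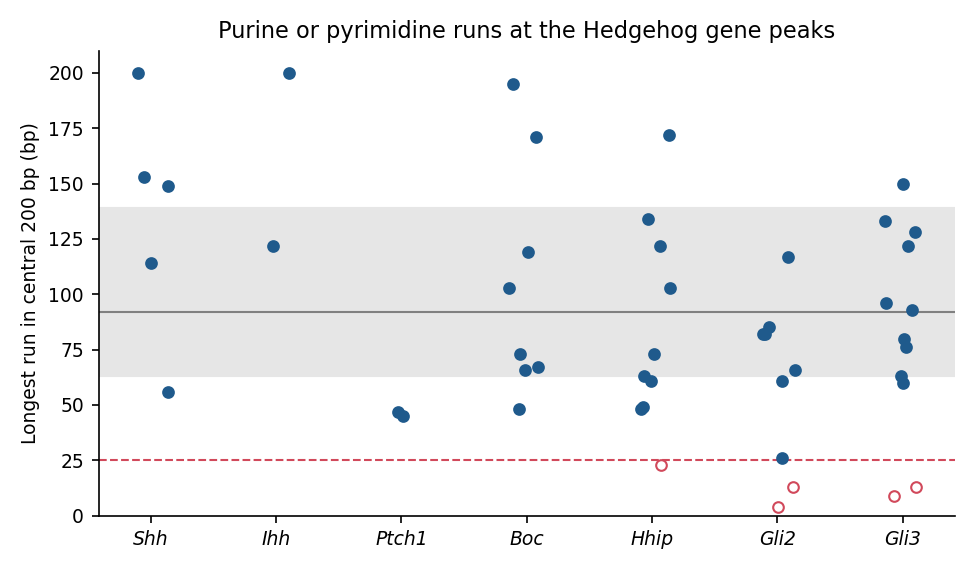
Longest purine or pyrimidine run in the central 200 bp of each Isl1 peak, in bp, by gene. The grey band spans the quartiles of all 48295 peaks (63.0 to 139 bp), the grey line is their median of 92.0 bp, and the dashed line marks 25 bp. Points are spread sideways only for visibility, and open points are the 5 peaks below the dashed line, at Hhip, Gli2 and Gli3.

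The 5 peaks without a central run belonged to Gli2, Gli3 and Hhip, which had 9, 12 and 10 peaks. Of protein-coding genes, 9.27% had such a peak, a share that depends on the number of peaks per gene. Counted per peak, a run was present in 89.6% of the 48 and in 94.1% of the list. Just above the bound lay the Gli2 peak 31.5 kb upstream with 26 bp in its centre, and just below it the Hhip peak 69.0 kb upstream with 23 bp. That Hhip peak held a run of 110 bp outside its central window. The other 4 had none of 25 bp anywhere, and their sequences differed from each other. The following 3 are shown as the exceptions to the runs printed above. In the Gli2 peak 64.8 kb upstream, capitals mark the most frequent word of 10 bases. In that 40.3 kb downstream they mark the longest repeat of 2 bases. In the Gli3 promoter peak, of which only the 89 bp before the first exon are given, they mark the longest purine run.
Gli2, 64.8 kb upstream, chr1:121014904-121015103: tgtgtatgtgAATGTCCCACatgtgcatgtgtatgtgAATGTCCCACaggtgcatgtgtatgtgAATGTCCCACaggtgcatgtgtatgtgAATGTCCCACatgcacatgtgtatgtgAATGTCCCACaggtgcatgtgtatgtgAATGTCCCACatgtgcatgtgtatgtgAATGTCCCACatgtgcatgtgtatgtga
Gli2, 40.3 kb downstream, chr1:120909749-120909948: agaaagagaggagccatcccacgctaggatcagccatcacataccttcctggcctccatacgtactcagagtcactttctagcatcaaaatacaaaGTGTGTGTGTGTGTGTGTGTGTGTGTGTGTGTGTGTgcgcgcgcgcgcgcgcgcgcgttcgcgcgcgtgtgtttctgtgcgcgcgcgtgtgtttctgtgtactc
Gli3, 0.394 kb upstream, chr13:15554979-15555067: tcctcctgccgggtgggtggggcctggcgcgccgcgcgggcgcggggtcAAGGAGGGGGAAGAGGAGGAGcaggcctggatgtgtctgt

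The Gli2 peak 64.8 kb upstream was a tandem repeat. The marked word occurred 18 times in its 554 bp, at a median spacing of 27 bp, and neither purines nor pyrimidines ran on for more than 4 bp. The peak 40.3 kb downstream, in a Gli2 intron, held a GT repeat of 36 bp that passed into alternating C and G. The Gli3 promoter peak was rich in G and C, with a longest run of 21 bp. The fourth, the Gli3 peak 32.0 kb upstream, had no run over 14 bp, and shifted by 3 to 79 bp it matched itself at no more than 29.8% of its bases. Whether it lies in an interspersed repeat was not tested.

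TAAT, the core of homeodomain binding sites, was searched on both strands. It was present in the central 200 bp of 18 of the 48 peaks (37.5%, exact 95% interval 24.0 to 52.6) and of 35.3% of all peaks. In the windows 1 kb away it was present in 69.8% and 73.4%. Over the whole peak it was present in 39 of 48, or 81.2%, against 82.8% in the list. In the centre of the closest peaks it was found at Hhip, with 2 copies, and at Ptch1, with 1, and in none of those of Shh, Ihh, Boc, Gli2 and Gli3, the Gli3 one being the promoter peak. The Gli3 window 24.8 kb upstream, printed above, held 2. TAAT was thus less frequent in the centres than in windows of the same length 1 kb away. It mixes purines and pyrimidines, so it cannot lie within a run, but whether this accounts for the lower share was not tested. These letters alone do not mark a site. The letters GACCACCCA, the preferred site of the Gli proteins, were searched on both strands over the whole peak and were found in 0 of 48 (upper bound of the exact 95% interval 7.40%) and in 0.174% of all peaks. At so low a share, 0 of 48 does not set these peaks apart. With up to 1 mismatch, 6 of the 48 held a match, and no such value over the list is given here.

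A further 48 genes of the pathway gave the wider setting. Of these, 34 (70.8%) had a peak, 106 peaks in all, against the 49.8% of protein-coding genes given above. A peak within 10 kb was present for 15 (31.2%, against 24.7%), and 19 (39.6%) had at least 2, against 29.3%. As for the 9 genes, these counts depend on the room around each gene. By role, a peak was present for 4 of 4 receptors and coreceptors, 11 of 15 genes of signal transduction at the cilium, 11 of 14 targets and 7 of 8 genes of the endodermal and notochordal source of Shh. It was present for 1 of 6 genes of ligand release and processing and not for Dhh, the third Hedgehog ligand.

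Among receptors, Lrp2, a large endocytic receptor that binds Shh, had 8 peaks with the closest 0.745 kb upstream. Gas1, a coreceptor like Boc, had 5 with the closest 0.670 kb upstream, and Cdon, the closest relative of Boc, had 2. In the group of release and processing, Hhat, which adds palmitate to the ligand, had 6, while Disp1, Disp2, Scube1, Scube2 and Scube3 had none. At the cilium, Evc2 had 7, and Btrc and Ift88 had 4 each. A peak within 10 kb was found there for Evc2, Prkaca, Tulp3, Ift88 and Kif3a. Sufu, the inhibitor that holds the Gli proteins, and Kif7, Csnk1a1 and Ift172 had no peak by name. In the stretch closest to Sufu lay 1 peak, assigned to Trim8, and in those of the other 3 none.

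Among targets in responding cells, the growth regulator Mycn had 11 peaks, with the closest 2.83 kb upstream, Osr1, a transcription factor of the posterior second heart field, had 10, and Foxf2 had 4. The closest Foxf2 peak was 14.0 kb upstream. Besides Mycn and Osr1, the targets with a peak within 10 kb were Tbx1, Tbx2, Bcl2, Ccnd1 and Bmp4, of which Bcl2 had it 0.199 kb upstream and Tbx2 0.455 kb downstream. Foxf1, Foxc2 and Nkx2-2 had none by name. Yet, by the protein-coding TSSs of GENCODE vM1, the stretches closest to them held 4, 5 and 9 peaks. The 4 at Foxf1 were assigned to the noncoding gene Fendrr, the 5 at Foxc2 to Foxl1, and the 9 at Nkx2-2 to the noncoding genes Nkx2-2os and 6430503K07Rik. The 2 annotations thus differ at Foxc2, since by the TSSs of the list those 5 peaks lay closest to Foxl1. In the source tissues of Shh, Foxa2, which activates Shh in the floor plate and endoderm, had 8, Pax9 6 and Sox17 2. Of the 6 named for Pax9, only 1 lay in the stretch closest to Pax9. Nkx2-1 had a peak 1.44 kb downstream, and Foxa3 had none.

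**Figure D4:**
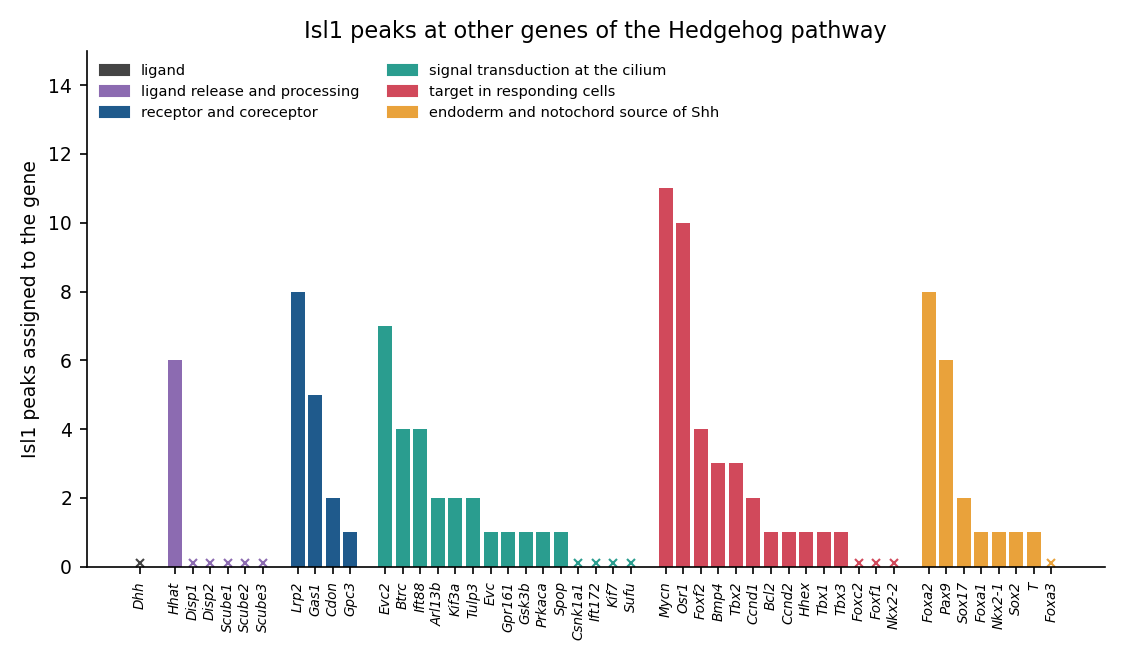
Number of Isl1 peaks assigned to each of the 48 further pathway genes (bars, from 0), grouped and coloured by role, with a cross for the 14 genes without a peak. Mycn with 11 and Osr1 with 10 are the tallest bars, and the group of ligand release and processing has peaks at Hhat alone.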

How the data were processed

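The deposited list holds peak positions, signed distances to a TSS and gene names, and no score (unit: other). By the methods and labels, the authors aligned the reads with Bowtie2 (build mm9), used Picard 1.136 against PCR duplicates and MACS for peak calling, dropped peaks over the ENCODE blacklist and named the closest TSS. Whether the list is already an intersection of replicates is not stated in the sources used here. A repeated header line among the peaks was left out.

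Here each peak was read from the NCBIM37 (mm9) genome with pysam 0.24.0, and summarised with pandas 2.3.3, numpy 2.4.6 and scipy 1.17.1. Features were taken from GENCODE vM1 with an overlap of 1 bp, and protein-coding gene names from RefSeq, whose GRCm38.p6 coordinates were not used. Central windows were 100 bp to either side of the midpoint. Functions were checked on simulated sequences. The 9 genes, the 48 further genes and the measures were chosen with earlier results of these data known. Named were all 9 genes, and of the 48 those with a peak within 10 kb, the 3 with most peaks per role and those without a peak. The genes given peaks over Boc, Gli2 and Gli3, or near Sufu, Foxf1, Foxc2 and Nkx2-2, were named after their values were seen, as were the repeat measures of the peaks without a run. 1 further gene of the pathway and the window sequences of Shh, Ihh and Boc are not reported here.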

Additional observations from a re-analysis of the deposited data

How the results depend on the processing

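Of 32 values recomputed under other choices, 22 stayed within 1.5 times the reported count or within the 95% interval of the reported share, median or density, and 10 moved beyond it. The 22 include 33 peaks of the Hedgehog genes within 100 kb of the TSS, 5 of these genes with a peak within 10 kb, and 25 further genes with a peak wider than the median. Keeping only peaks without a central run left 3 Hedgehog genes with 5 peaks and 9 of the further pathway genes. Keeping only peaks within 10 kb of the TSS left 6 peaks of the Hedgehog genes and 15 of the further genes. With at least 2 peaks per gene, 19 of the further genes remained. Keeping only peaks wider than the median of 466 bp left 21 peaks of the Hedgehog genes and a density of 10.6 per Mb around them. These filters hold fewer peaks by construction. With the closest peak of each gene in place of all peaks, the median distance was 4.54 kb, and with TAAT counted over the whole peak its share was 81.2%. No paired analysis was possible because there is 1 list of binding sites and the comparison came from no test. Without peak heights, reads or an analysed input, weak and strong peaks count alike, and a gene without a peak may have binding under the authors' threshold or under the name of a neighbour.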
